A study of Rattus norvegicus with 4 samples.

Results

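The transcription factors described here are 7 genes used as lineage markers of hepatic stellate cells: Sox9, Tcf21, Hand2, Lhx2, Gata4, Pparg and Nr2f2. Their probes were chosen by the gene name in the scanner files, which gave 7 of 35561 gene names and 11 of the 41012 gene probes of the array. There were 4 probes for Sox9, 2 for Hand2 and 1 for each of the other genes. The Pparg probe was printed on 10 spots and each of the others on 1. A filter on dim or unusable probes kept 10 of the 11, and 29833 probes in all. The Hand2 probe A_44_P214836 did not pass, because its spot was marked as an outlier on 1 array.

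Rat hepatic stellate cells were given an siRNA against endoglin (Eng), a TGF-beta and BMP co-receptor, or were left untreated, or were given a control siRNA. The endoglin siRNA and the untreated group were each hybridized on 2 arrays, 1 with cells of 1 animal and 1 with cells pooled from 3 animals, and the control siRNA RNA was on all 4. The Cy5 dye carried the endoglin siRNA or untreated RNA and the Cy3 dye carried the control siRNA RNA on all 4 arrays, with no dye swap, so a dye effect and the group cannot be told apart in a ratio. The endoglin siRNA cells differ from the untreated cells both in the siRNA and in having been transfected, while the control siRNA cells share the transfection. Strain, sex and age of the animals, days in culture, siRNA sequences and time to harvest are details not given in the sources used here. The labels do not say whether the single animal was one of the pooled ones or whether arrays shared a control RNA, and the p-values therefore measure only the spread between these arrays, which may be technical.

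Stellate cells are the vitamin A-storing pericytes of the liver sinusoid and the main source of scar-forming myofibroblasts. Their embryonic origin is the mesothelium and septum transversum mesenchyme, where TCF21, LHX2, GATA4 and HAND2 act. In mice, loss of Lhx2 or Gata4 is accompanied by activated stellate cells and liver fibrosis. SOX9, a high-mobility-group factor best known from cartilage and bile ducts, appears in activated stellate cells, whereas PPAR-gamma, the nuclear receptor of fat cell differentiation, marks quiescent ones. NR2F2 (COUP-TFII) is an orphan nuclear receptor of mesenchymal and venous cells.

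Markers of the labelled cell type were present in the cultures. Of 15 stellate cell markers, among them desmin (Des), Lrat, Reln, Pdgfrb and Cygb, 14 were well above background in Cy5 on both endoglin siRNA arrays and on the 1-animal untreated array, and 15 on the pooled untreated array. Gfap was the exception, with net signals of 15.9 (1 animal) and 16.7 (pool) in endoglin siRNA cells, against 17.7 (1 animal) and 557 (pool) in untreated cells. Of 11 Kupffer cell and macrophage markers, 11 and 8 were also well above background in endoglin siRNA cells, against 11 and 11 in untreated cells. Their summed net Cy5 signal on the 1-animal untreated array was 48271, against 1232900 for the stellate cell markers. Eng had log2 ratios to control siRNA of -3.08 (1 animal) and -1.72 (pool) in endoglin siRNA cells, against -0.36 and -0.42 in untreated cells. Its group ratio with endoglin siRNA was -2.40 ± 0.25 (SE, n = 2 arrays, limma adjusted p = 0.00416). The share of gene spots well above background in Cy5 was 70.2% and 65.7% on the endoglin siRNA arrays, against 69.3% and 93.3% on the untreated arrays, so the pooled untreated array stood apart with more signal at dim probes.

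Among the 7 genes, Sox9 fell and Tcf21 rose with endoglin siRNA relative to control siRNA, by limma with Benjamini-Hochberg adjustment at 0.05 over all 29833 probes. These 2 calls, 1 lower and 1 higher, were made among 10 probes tested, while 8.29% of all probes were called in that comparison (5.19% higher and 3.09% lower). At an unadjusted p under 0.05 there were 4 of the 10 probes, against 6911 of all 29833. Between untreated and control siRNA cells limma called 0 of the 10, against 0.835% of all probes. There 1 of the 10 had an unadjusted p under 0.05, against 4173 of all 29833. Between endoglin siRNA and untreated cells limma called 0 of the 10, against 0.101% of all probes. There 3 of the 10 had an unadjusted p under 0.05, against 2396 of all 29833. A log2 ratio here is that of Cy5 over Cy3 after background correction and loess, and a level in bulk RNA cannot tell fewer cells of a type from less RNA per cell.

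**Figure D1:**
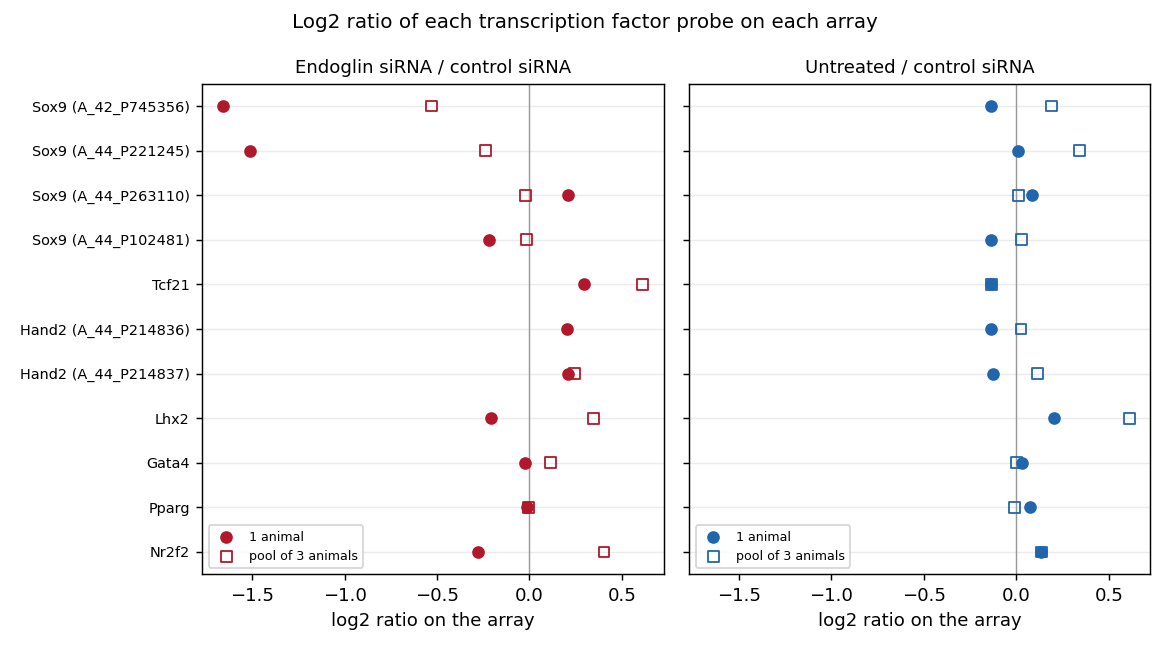
Log2 ratio to control siRNA on the horizontal axis for each of the 11 probes, with endoglin siRNA arrays on the left and untreated arrays on the right. Filled circles are arrays of 1 animal and open squares are pools of 3 animals. The 2 bright Sox9 probes lie at -1.65 and -1.51 on the 1-animal endoglin siRNA array, left of every other point, and Hand2 (A_44_P214836) has no pooled endoglin siRNA point.

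Sox9 was read by 4 probes, which the array file places on chromosome 10, on a genome build that the file does not name. Probes A_42_P745356 (102409902 to 102409961) and A_44_P221245 (102410155 to 102410214) were bright, and probes A_44_P263110 (102408192 to 102408251) and A_44_P102481 (102408594 to 102408653) were close to background. On the first bright probe, A_42_P745356, the log2 ratio was -1.65 (1 animal) and -0.53 (pool) in endoglin siRNA cells, against -0.14 (1 animal) and 0.19 (pool) in untreated cells. The 1-animal culture showed the deeper fall. In the deposited value table both untreated arrays have the reverse sign. The labels' dyes, with the untreated RNA in Cy5, set the direction of every untreated ratio given here. The background-subtracted Cy5 signals were 440.1 (1 animal) and 861 (pool) in endoglin siRNA cells, against 1385 (1 animal) and 2546 (pool) in untreated cells. In Cy3 the control siRNA RNA had 542 and 663 on the endoglin siRNA arrays, against 587 and 636 on the untreated arrays. That range was narrower than in Cy5, but these signals are not scaled across arrays. The median net Cy5 of all gene spots was 94.9 and 95.2 on the endoglin siRNA arrays, against 82.1 and 262 on the untreated arrays. The median net Cy3 was 27.2 and 26.2, against 29.9 and 58.6.

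The group ratio of Sox9 on A_42_P745356 with endoglin siRNA was -1.09 ± 0.22 against control siRNA (SE, n = 2 arrays, interval -1.61 to -0.58, adjusted p = 0.0265), or 2.13-fold lower. Only 0.0939% of all probes had a lower ratio in that comparison. In untreated cells the same ratio was 0.03 ± 0.22 (adjusted p = 0.976). Between endoglin siRNA and untreated cells the difference was -1.12 ± 0.31 (SE, interval -1.85 to -0.39), with -1.51 for 1 animal and -0.72 for the pool, and it did not pass over all probes (adjusted p = 0.354). Fitting the background model without 10 spots of extreme negative signal on the pooled arrays brought this difference to -1.43, past the threshold (adjusted p = 0.0299). Of 13 alternatives, 4 passed and 9 did not. Among the 9 were settings in which no probe of the array passed. These were Feature Extraction ratios, the deposited table, median centring, scaling and the fit without the pooled untreated array. The difference was -0.56 without the 1-animal endoglin siRNA array. With median centring it was -0.48, where the median of all probes was 0.26.

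The second bright probe gave the same direction. A_44_P221245 had log2 ratios of -1.51 (1 animal) and -0.24 (pool) in endoglin siRNA cells, against 0.01 (1 animal) and 0.34 (pool) in untreated cells. Its group ratio with endoglin siRNA was -0.88 ± 0.25 against control siRNA (SE, n = 2 arrays, adjusted p = 0.0734), so this probe missed the threshold. It passed at -1.10 (adjusted p = 0.0072) with the background model fitted without the extreme spots. Of 12 alternatives, 4 passed and 8 did not. No probe of the array passed with Feature Extraction ratios, the deposited table, median centring or scaling, which are among the 8. The ratio was -0.24 without the 1-animal endoglin siRNA array. With median centring it was -0.36, where the median of all probes was 0.32. Its difference between endoglin siRNA and untreated cells was -1.05 ± 0.35 (adjusted p = 0.462).

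The 2 dim Sox9 probes carried little information. A_44_P263110 had net Cy5 signals of 33.7 (1 animal) and 69.6 (pool) in endoglin siRNA cells, against 48.9 (1 animal) and 357 (pool) in untreated cells, and its group ratio with endoglin siRNA was 0.09 (adjusted p = 0.537). A_44_P102481 was not well above background in Cy5 on either endoglin siRNA array, with 16.7 and 24.1 net, against 30.5 and 249.6 in untreated cells, where it was measured on both. The control siRNA RNA was measured on 1 of the 2 endoglin siRNA arrays. The group ratio with endoglin siRNA was -0.12 ± 0.076 (SE, interval -0.30 to 0.06, adjusted p = 0.430), an interval that includes no change. Its fitted difference between endoglin siRNA and untreated cells was -0.06 ± 0.11 (SE, interval -0.31 to 0.19, adjusted p = 0.963). The ratio of A_44_P102481 with endoglin siRNA depended on the processing, with -0.12 as reported and -1.09 with Feature Extraction ratios (-1.13 for 1 animal and -1.05 for the pool, adjusted p = 0.0695) and with the deposited table. A_44_P263110 stood at -0.082 with Feature Extraction ratios.

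Sox9 is also a bile duct gene, and osteopontin (Spp1), which bile duct cells also make, was lower in endoglin siRNA cells as well. Of 9 cholangiocyte markers on the array, 5 (1 animal) and 3 (pool) were well above background in Cy5 in endoglin siRNA cells, against 5 and 8 in untreated cells. Their summed net Cy5 signal was 30437 and 3532 in endoglin siRNA cells, against 59967 and 16923 in untreated cells, of which Spp1 alone gave 30192 and 2301 in endoglin siRNA cells, against 59652 and 15426 in untreated cells. The duct keratin Krt19 had net signals of 3.49 and 1.40 in endoglin siRNA cells, against 3.31 and 90.6 in untreated cells. Epcam had net signals of 2.52 and 16.1 in endoglin siRNA cells, against 12.3 and 50.1 in untreated cells. Krt7, another duct keratin, had the opposite order within each RNA source, with net signals of 54.1 and 1128 in endoglin siRNA cells, against 33.4 and 626 in untreated cells. Krt19 and Muc1 were well above background in Cy5 only on the pooled untreated array, and Epcam on none. That array had more signal at dim probes in general. Of 11 hepatocyte markers, 7 (1 animal) and 5 (pool) were above background in endoglin siRNA cells, against 8 and 11 in untreated cells. The part of bile duct cells in the Sox9 values was not tested.

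**Figure D2:**
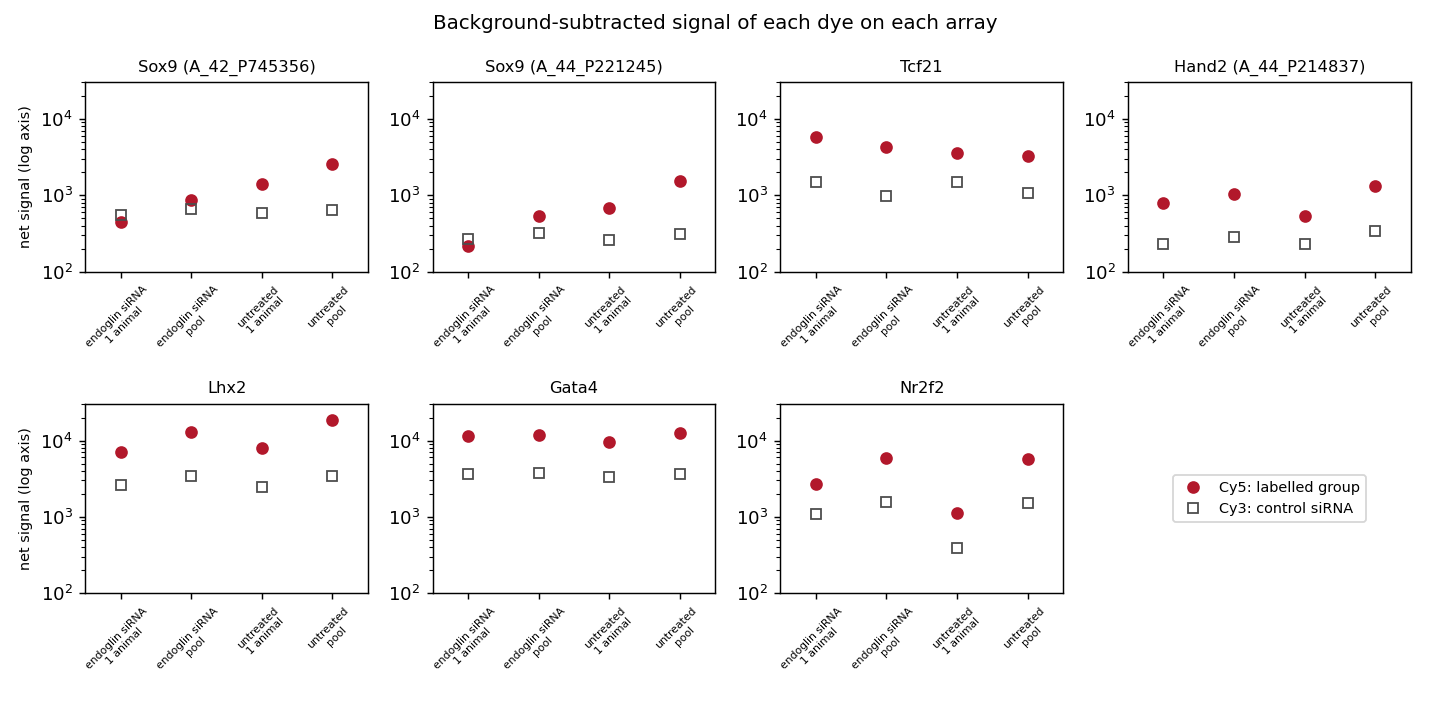
Background-subtracted signal on a log axis for 7 well-measured probes on each array, with the 2 endoglin siRNA arrays left of the 2 untreated arrays. Filled circles are Cy5 (the labelled group) and open squares are Cy3 (control siRNA). The Sox9 circles for A_42_P745356 lie at 440.1 and 861 on the endoglin siRNA arrays, against 1385 and 2546 on the untreated arrays, while both Nr2f2 symbols drop together on the 1-animal untreated array.

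Tcf21, a basic helix-loop-helix factor of septum transversum mesenchyme and of quiescent stellate cells, rose. Its log2 ratio was 0.29 (1 animal) and 0.61 (pool) in endoglin siRNA cells, against -0.14 (1 animal) and -0.13 (pool) in untreated cells. Here the pool moved further than the single animal. Net Cy5 signals were 5716 and 4334 in endoglin siRNA cells, against 3599 and 3267 in untreated cells. The Cy3 signals of control siRNA RNA were 1505 and 984 on the endoglin siRNA arrays, against 1471 and 1078 on the untreated arrays.

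The group ratio of Tcf21 with endoglin siRNA was 0.45 ± 0.083 against control siRNA (SE, n = 2 arrays, interval 0.26 to 0.65, adjusted p = 0.0193), or 1.37-fold higher. In untreated cells it was -0.14 ± 0.083 (adjusted p = 0.556). The difference between endoglin siRNA and untreated cells was 0.59 ± 0.12 (SE, interval 0.31 to 0.86), with 0.43 for 1 animal and 0.75 for the pool, and it missed the threshold over all probes (adjusted p = 0.179). Of all probes, 98.4% had a lower ratio than Tcf21 against control siRNA.

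Both calls depended on 1 array and on the processing. Without the 1-animal endoglin siRNA array, Sox9 on A_42_P745356 stood at -0.53 (adjusted p = 0.0557), and without the pooled one Tcf21 stood at 0.29 (adjusted p = 0.0651). With the log ratios of Feature Extraction, the scanner software, Sox9 was at -1.47 (adjusted p = 0.0772) and Tcf21 at 0.41 (adjusted p = 0.119), in a fit that called 0 of all probes (8594 at an unadjusted p under 0.05). Centring each array on its median in place of loess gave -0.40 for Sox9 and 1.40 for Tcf21 (adjusted p = 0.555 and 0.207), while it moved the median of all probes to 0.32. Relative to that median the Sox9 ratio was -0.71 and the Tcf21 ratio 1.08. Members that did not pass also stood higher under median centring, at 0.83 for Lhx2, 0.82 for Gata4, 0.71 for Nr2f2 and 0.56 for Hand2 (A_44_P214837) relative to the same median. The direction of both genes against control siRNA was the same under all 13 alternatives, some of which could not change it. The ratio stayed as it was without an untreated array, without the filter, with 1 probe per gene name and with an RNA source block. The deposited table also repeats the Feature Extraction ratios.

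**Figure D3:**
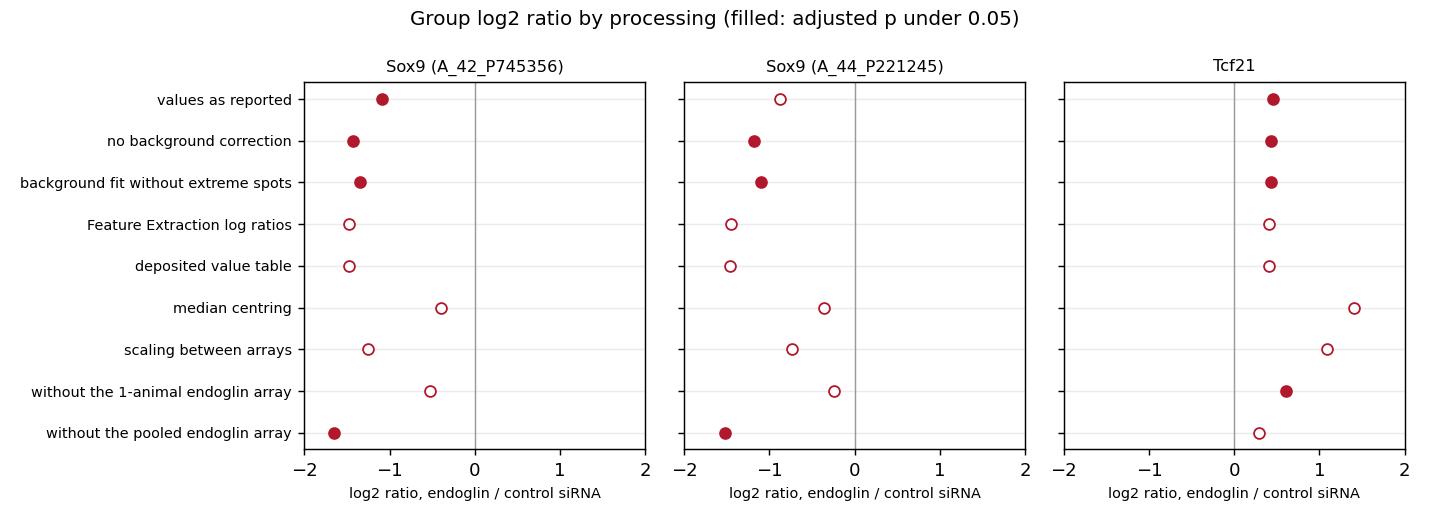
Group log2 ratio of endoglin siRNA over control siRNA for the 2 bright Sox9 probes and Tcf21 (horizontal axis) under the reported processing and 8 alternatives (rows). Filled points have an adjusted p under 0.05. Sox9 stays below 0 and Tcf21 above 0 in each row, and the filled points disappear with Feature Extraction ratios, the deposited table, median centring and scaling.

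The promoters of Tcf21 and Hand2 are shown because these 2 members are basic helix-loop-helix factors, whose class binds E-boxes (letters CANNTG), and because GATA4, another member, binds the GATA motif (searched as AGATAA). RefSeq's promoter table for the assembly GRCr8 held an entry for 4 of the 7 genes (Tcf21, Hand2, Lhx2 and Pparg), each of 300 bases. Capitals mark matches to either motif on either strand, and no matches overlap. The Tcf21 promoter is chr1:24520249-24520548 (plus strand) and the Hand2 promoter is chr16:37931439-37931738 (minus strand).
Tcf21: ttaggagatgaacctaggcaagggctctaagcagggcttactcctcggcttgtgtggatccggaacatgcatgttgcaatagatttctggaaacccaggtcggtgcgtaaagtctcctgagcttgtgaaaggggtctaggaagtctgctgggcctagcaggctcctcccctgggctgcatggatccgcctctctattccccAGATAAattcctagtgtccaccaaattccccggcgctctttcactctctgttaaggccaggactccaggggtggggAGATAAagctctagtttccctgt
Hand2: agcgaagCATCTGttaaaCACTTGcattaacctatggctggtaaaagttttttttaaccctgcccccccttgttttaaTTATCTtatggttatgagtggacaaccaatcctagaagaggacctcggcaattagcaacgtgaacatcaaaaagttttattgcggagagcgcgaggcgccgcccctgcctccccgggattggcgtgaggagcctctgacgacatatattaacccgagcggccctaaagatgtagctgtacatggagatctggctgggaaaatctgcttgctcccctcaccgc
The Tcf21 promoter held 2 GATA matches, with first bases at -49 and 28 counted from the gene's start as 1, and 0 E-box matches. The Hand2 promoter held 2 E-box matches, at -243 and -232, and 1 GATA match at -172. Of 33469 rat promoters of that length, 72.1% held an E-box match and 11.6% a GATA match. The CAGAC box of SMAD proteins was found once in the Tcf21 promoter and in 50.1% of all promoters. These matches describe letters in the windows only.

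Hand2, a basic helix-loop-helix factor of embryonic mesenchyme, showed small positive ratios. Probe A_44_P214837 had log2 ratios of 0.21 (1 animal) and 0.24 (pool) in endoglin siRNA cells, against -0.13 (1 animal) and 0.12 (pool) in untreated cells. Its group ratio with endoglin siRNA was 0.22 ± 0.075 against control siRNA (SE, interval 0.05 to 0.40), which did not pass over all probes (adjusted p = 0.117). Between endoglin siRNA and untreated cells it differed by 0.23 ± 0.11 (adjusted p = 0.655). The other probe, A_44_P214836, read 0.20 in the 1-animal endoglin siRNA cells, against -0.14 (1 animal) and 0.02 (pool) in untreated cells. It was left out of the fit, as its spot on the pooled endoglin siRNA array was marked as an outlier.

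Lhx2, a LIM homeobox factor that restrains stellate cell activation in mice, had the opposite order of groups. Its log2 ratios were -0.21 (1 animal) and 0.35 (pool) in endoglin siRNA cells, against 0.20 (1 animal) and 0.61 (pool) in untreated cells. The 2 endoglin siRNA arrays had opposite signs, and the groups overlapped. The group ratio was 0.07 ± 0.14 with endoglin siRNA (SE, interval -0.25 to 0.39, adjusted p = 0.824) and 0.41 ± 0.14 in untreated cells (interval 0.08 to 0.73, adjusted p = 0.238). The difference between endoglin siRNA and untreated cells was -0.34 ± 0.20 (interval -0.80 to 0.12, adjusted p = 0.767). In each RNA source the endoglin siRNA cells had the lower ratio, by -0.41 for 1 animal and -0.26 for the pool, but median centring (0.63) and scaling between arrays (0.10) turned the sign of the group difference.

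Gata4, a zinc-finger factor needed for the quiescent state of stellate cells in mice, had 4 ratios within a narrow range. Its log2 ratios were -0.03 (1 animal) and 0.11 (pool) in endoglin siRNA cells, against 0.03 (1 animal) and 0.00 (pool) in untreated cells. The group ratio with endoglin siRNA was 0.04 ± 0.065 against control siRNA (SE, interval -0.11 to 0.20, adjusted p = 0.753). In untreated cells the group ratio was 0.02 (interval -0.14 to 0.17, adjusted p = 0.955). Net Cy5 signals were 11354 and 11981 in endoglin siRNA cells, against 9632 and 12702 in untreated cells.

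Nr2f2, read here by 1 probe, had opposite signs in the 2 endoglin siRNA arrays. Its log2 ratios were -0.28 (1 animal) and 0.40 (pool) in endoglin siRNA cells, against 0.13 (1 animal) and 0.14 (pool) in untreated cells, so the endoglin siRNA arrays lay on either side of both untreated arrays. The group ratio with endoglin siRNA was 0.06 ± 0.14 against control siRNA (SE, interval -0.26 to 0.38, adjusted p = 0.845). Without the 1-animal endoglin siRNA array it stood at 0.40, and without the pooled one at -0.28, each a value from 1 array. In untreated cells the group ratio was 0.13 ± 0.14 (adjusted p = 0.758).

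Pparg was close to background. Of its 10 spots, 2 (1 animal) and 0 (pool) were well above background in Cy5 in endoglin siRNA cells, against 5 (1 animal) and 9 (pool) in untreated cells. The median net Cy5 signal over the 10 spots was 16.3 and 8.44 in endoglin siRNA cells, against 22.1 and 65.8 in untreated cells. In Cy3 the control siRNA RNA had 0 spots above background on both endoglin siRNA arrays, against 0 and 5 on the untreated arrays. The probe passed the filter only through the untreated arrays, and since neither channel of the endoglin siRNA arrays met it, no ratio against control siRNA is given there. In untreated cells the ratio was 0.03 ± 0.062 (SE, adjusted p = 0.888). The median net Cy5 signal over all gene spots was 94.9 and 95.2 on the endoglin siRNA arrays, against 82.1 and 262 on the untreated arrays, so the array with the highest Pparg signal was also the brightest overall.

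Related gene lists, chosen with earlier results of these data known, place these factors in their pathways. Each gene was represented by its brightest probe, and 8.47% of all genes were called between endoglin siRNA and control siRNA, with a median ratio of 0.02. In a list of SOX9 target and cartilage genes, 3 of 19 measured genes rose and 3 fell (median 0.05). These calls, like all others of the fit, were lost with Feature Extraction ratios, the deposited table, median centring and scaling. Fibromodulin (Fmod), a collagen-binding proteoglycan, rose with ratios of 1.55 (1 animal) and 0.86 (pool), a mean of 1.20 ± 0.18 (SE, adjusted p = 0.0101). The cartilage collagen Col11a1 rose by 1.01 ± 0.18 (adjusted p = 0.0179) and the protease inhibitor Timp1 by 0.57 (adjusted p = 0.0306). Chst11, a chondroitin sulfotransferase, had ratios of -0.89 (1 animal) and -0.56 (pool) and fell by 0.72 on the log2 scale (adjusted p = 0.00645). The matrix protein matrilin 4 (Matn4) fell by 0.62 (adjusted p = 0.00888), and Spp1 fell by 0.49 (adjusted p = 0.0366). Without the pooled endoglin siRNA array Spp1 did not pass (adjusted p = 0.153). Under median centring, where the median of all probes was 0.32, Spp1 stood above that median (0.52) and Matn4 below it (0.024).

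In untreated cells 2 of the 19 genes of that list, Timp1 and Spp1, were higher than with control siRNA, against 0.874% of all genes. Timp1 had ratios of 0.91 (1 animal) and 1.48 (pool) in untreated cells (mean 1.20 ± 0.12, SE, adjusted p = 0.0114). Without the pooled untreated array the ratios were 0.91 for Timp1 and 1.00 for Spp1, and neither passed. That fit had 1 untreated array, and no other probe passed in it either. Spp1 had ratios of -0.31 (1 animal) and -0.66 (pool) in endoglin siRNA cells, against 1.00 (1 animal) and 1.36 (pool) in untreated cells. Its difference between endoglin siRNA and untreated cells, -1.67 ± 0.15 (adjusted p = 0.0189), was the 1 call of the list in that comparison. Of all genes, 0.106% were called there. The Spp1 call ended without either untreated array, in fits that left 1 untreated array. Without the pool no other probe passed either. Kupffer cell markers moved with the untreated group. Of 11 measured, 3 were higher than with control siRNA and their summed net Cy5 signal was 33768 (1 animal) and 12782 (pool) in endoglin siRNA cells, against 48271 and 22824 in untreated cells. Fewer of these markers passed without the 1-animal untreated array. None passed without the pooled one, where no other probe passed either. The part of macrophages, which can make Spp1, in these values was not tested.

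Nuclear receptors and adipogenic factors had 4 of 32 genes higher and 0 lower with endoglin siRNA relative to control siRNA (median 0.05). Of all genes, 8.47% were called in that comparison. Klf15, a zinc-finger factor of fat and muscle metabolism, had ratios of 0.93 (1 animal) and 0.84 (pool) in endoglin siRNA cells, against 0.30 and 0.27 in untreated cells, and its mean with endoglin siRNA was 0.88 ± 0.062 (SE, adjusted p = 0.00209). Klf6, a zinc-finger factor known from activated rat stellate cells, rose by 0.63 ± 0.076 (adjusted p = 0.00563). The glucocorticoid receptor gene Nr3c1 rose by 0.49 ± 0.069 (adjusted p = 0.00888). The bile acid receptor gene Nr1h4 rose by 0.31 ± 0.070 (adjusted p = 0.0397), a call that ended when any 1 array was left out. Between endoglin siRNA and untreated cells limma called 0 of the 32, against 0.106% of all genes. There 4 of the 32 had an unadjusted p under 0.05, against 2396 of all 29833 probes. Klf15 came closest of the named genes at 0.60 ± 0.088 (adjusted p = 0.0860).

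PPAR-gamma target genes had 2 of 19 higher and 0 lower with endoglin siRNA (median 0.01), while 8.47% of all genes were called. The Pparg probe was itself near background. Fabp3, a fatty acid binding protein, had ratios of 0.31 (1 animal) and 0.45 (pool) and a mean of 0.38 ± 0.082 (SE, adjusted p = 0.0306). Cpt1a, which carries fatty acids into mitochondria, rose by 0.33 ± 0.071 (adjusted p = 0.0313). Without the 1-animal endoglin siRNA array neither passed (adjusted p = 0.0669 and 0.231). Fabp3 also did not pass without the pooled one (adjusted p = 0.110), nor Cpt1a without either untreated array (adjusted p = 0.0650). In untreated cells limma called 0 of the 19, against 0.874% of all genes. There 3 of the 19 had an unadjusted p under 0.05, against 4173 of all 29833 probes.

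In a list of 54 other stellate cell and mesenchymal transcription factors, 47 were on the array and 41 were measured. With endoglin siRNA limma called 0 of these 41 (median 0.01), against 8.47% of all genes. There 6 of the 41 had an unadjusted p under 0.05, against 6911 of all 29833 probes. The largest ratios were those of the forkhead factor Foxs1, a marker of pericytes, at -0.43 ± 0.11 (SE, adjusted p = 0.05001), and of the LIM-only factor Lmo4, at -0.35 ± 0.14 (adjusted p = 0.177). Foxs1 had ratios of -0.67 (1 animal) and -0.19 (pool) in endoglin siRNA cells, against -0.14 and -0.13 in untreated cells, and it passed at an adjusted p of 0.00151 with the background model fitted without the extreme spots. Under median centring Foxs1 stood at 0.15 and Lmo4 at 0.47, where the median of all probes was 0.32, so Foxs1 stayed below that median and Lmo4 did not. In untreated cells limma again called 0 of the 41, against 0.874% of all genes. There too 6 of the 41 had an unadjusted p under 0.05, against 4173 of all 29833 probes. Gata6, a paralogue of Gata4, had the largest ratio there, at 0.28 ± 0.087 (adjusted p = 0.193), followed by the LIM domain binding factor Ldb1, a partner of LHX2, at -0.28 ± 0.064 (adjusted p = 0.107).

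**Figure D4:**
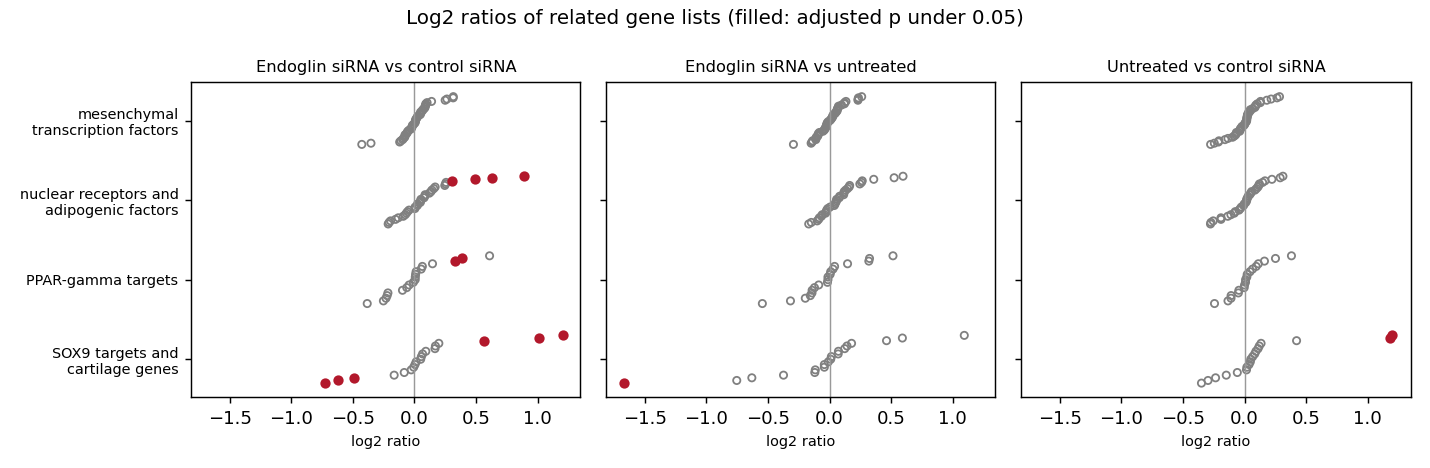
Group log2 ratios (horizontal axis) of 4 gene lists (rows, genes ordered by ratio) in 3 comparisons, endoglin siRNA against control siRNA, endoglin siRNA against untreated, and untreated against control siRNA. Filled points have an adjusted p under 0.05. In the left panel 6 of 19 SOX9 target and cartilage genes are filled, 3 on each side of 0, and 0 of 41 mesenchymal transcription factors. Of all genes, 8.47% were called in that comparison. The lists were chosen with earlier results of these data known.

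The probes whose 4 ratios lay closest to those of Sox9 on A_42_P745356, by Euclidean distance over 4 arrays among 12082 gene symbols, were those of Papln (distance 0.387), Prss35 (0.424) and C3h11orf96 (0.431). Papln, the gene of the extracellular matrix protein papilin, had ratios of -1.50 (1 animal) and -0.34 (pool) in endoglin siRNA cells, against -0.02 and -0.08 in untreated cells. Prss35, a serine protease gene, had ratios of -1.65 and -0.69 in endoglin siRNA cells, against -0.38 and -0.12 in untreated cells. In all 3 the 1-animal endoglin siRNA array had the lowest ratio, as for Sox9, which follows from choosing them by these same ratios. This likeness over 4 arrays that share a slide is a description only.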

How the data were processed

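The authors ran Agilent Feature Extraction 9.5.1.1 on the scans, as the file headers record. Per the file headers, mean and local background signals are linear intensity values. The LogRatio column deposited with them is log10 of Cy5 over Cy3. The deposited table of processed values also holds log10 ratios. It tracked the scanner ratios with a correlation of 1 for endoglin siRNA and of -1 for untreated arrays, for a reason not given in the sources used here. The 4 arrays shared 1 slide and 1 scan.

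Background was corrected by normexp (offset 50) and each array normalized by loess in limma 3.58.1 (R 4.3.3), with control spots at weight 0 and outlier spots left out. Spots of a probe were averaged. Probes were kept when at least 0.5 of their spots were well above background in 1 channel on at least 2 arrays and when usable on all 4. The fit had 2 group means and moderated variances (prior degrees of freedom 5.55), with Benjamini-Hochberg adjustment over 29833 probes. Intervals are at 95%. The control siRNA RNA was hybridized only in Cy3, so the p-values leave out its own spread, and both kinds of ratio have it as denominator. Channel levels were set across arrays by Aquantile.

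Members, lists and tests were chosen with earlier results of these data known. Named genes were the members, Eng, in each list the called genes (at most 4) or else the 2 largest, and the 3 symbols nearest to the member probe of the largest mean ratio. Timp1 and Spp1 were also named between endoglin siRNA and control siRNA after their values were seen. Markers of 6 liver cell types were read beside them. Array gene names were matched to RefSeq (GRCr8) by accession (8259), symbol (4503) or synonym (2986), and 14085 kept the name in the file. The fit was tested on simulated data. Precision is limited by having 2 arrays a group.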

Additional observations from a re-analysis of the deposited data

How the results depend on the processing

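Limma called 2472 probes between endoglin siRNA and control siRNA, 249 between untreated and control siRNA, and 30 between endoglin siRNA and untreated cells, and the paragraph gives alternatives in that order of comparisons. With no background correction the counts were 5570, 676 and 204 (2747 higher and 2823 lower in the first, against 1549 and 923). With normexp fitted without the 10 extreme negative spots they were 5015, 549 and 218, and with no filter on dim probes 2716, 421 and 57. Each count was 0 with Feature Extraction log ratios, with median centring, with scaling between arrays and with the deposited value table. At an unadjusted p under 0.05 there were 8594, 4119 and 3242 probes with Feature Extraction ratios, 8592, 4120 and 3246 with the deposited value table, 6945, 79 and 300 with median centring, and 1725, 731 and 413 with scaling. Leaving out each array in turn gave 1118 to 3394, 0 to 991 and 0 to 511 probes. The 0 counts came without the pooled untreated array (2326 and 1424 probes at an unadjusted p under 0.05), and where 1 array remained it was assumed to vary like the other group.

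Taking the RNA source as a replicate block gave 4797, 1441 and 389 probes. The numbers do not pair the samples by the labels, and with only 2 pairs the correlation of same-source deviations was 0.29 over 29833 probes. Under this block the second bright Sox9 probe (A_44_P221245) passed against control siRNA, and both bright Sox9 probes and Tcf21 passed between endoglin siRNA and untreated cells, as did Lhx2 between untreated and control siRNA.

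Of 355 alternative values of the member probes, 288 kept their direction and side of the threshold, 10 lost their call, 13 gained one and 44 changed sign. The cause was not tested. Some ratios could not move, as with the block, the filter, 1 probe per gene name or an array outside the comparison left out. The deposited table repeats the Feature Extraction ratios, and settings that called 0 of all probes could add no call. None of the values that changed sign had passed. Between endoglin siRNA and control siRNA, Sox9 (A_44_P263110) stood at -0.087 with no background correction, -0.082 with Feature Extraction ratios, -0.082 with the deposited table and -0.12 with median centring. Gata4 stood at -0.0036 with Feature Extraction ratios and -0.0037 with the deposited table. Leaving out each array, the ranges were -0.022 to 0.21 for Sox9 (A_44_P263110), -0.026 to 0.11 for Gata4, -0.21 to 0.35 for Lhx2 and -0.28 to 0.40 for Nr2f2.

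Between untreated and control siRNA, the values with no background correction were 0.043 for Sox9 (A_44_P102481), -0.0056 for Sox9 (A_44_P263110), -0.0067 for Pparg and 0.051 for Hand2 (A_44_P214837). Hand2 stood at 0.052 with normexp fitted without extreme spots, 0.0064 with Feature Extraction ratios, 0.0063 with the deposited table, 0.033 with median centring and 0.038 with scaling. With median centring Pparg stood at -0.12 and Sox9 (A_44_P263110) at -0.095. Leaving out each array, the ranges were -0.14 to 0.19 for Sox9 (A_42_P745356), -0.14 to 0.027 for Sox9 (A_44_P102481), -0.013 to 0.076 for Pparg and -0.13 to 0.12 for Hand2.

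Between endoglin siRNA and untreated cells, Gata4 stood at -0.022 with no background correction, -0.021 without extreme spots, -0.023 with Feature Extraction ratios and -0.023 with the deposited table. Sox9 (A_44_P263110) stood at -0.081 with no background correction, -0.056 without extreme spots, -0.088 with Feature Extraction ratios and the deposited table, -0.026 with median centring and -0.024 with scaling. Lhx2 stood at 0.63 with median centring and 0.10 with scaling, and Nr2f2 at 0.88 and 0.50. Leaving out each array, the ranges were -0.16 to 0.038 for Sox9 (A_44_P102481), -0.070 to 0.16 for Sox9 (A_44_P263110), -0.41 to 0.27 for Nr2f2 and -0.041 to 0.098 for Gata4. Signal over background limits both dim Sox9 probes and Pparg.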

Other observations

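Nr2f2 stood apart in both dyes of the 1-animal untreated array. Its net signals were 2723 in Cy5 and 1098 in Cy3 on the 1-animal endoglin siRNA array, against 1135 and 395 on the 1-animal untreated array. The Cy3 dye holds control siRNA RNA of 1 animal on both arrays, and after normalization across arrays its Nr2f2 level was 11.06 on the endoglin siRNA array, against 9.86 on the untreated array (log2 scale), a difference of 2.29-fold. Only 0.912% of all probes differed more between these control channels. Gata4 differed by 1.04-fold, Lhx2 by 1.03-fold and Tcf21 by 1.02-fold between the same channels, and Nr2f2 differed by 1.02-fold between the control channels of the pools. Each value is from 1 spot on 1 array, and the labels do not say whether the control RNA was the same on both arrays.

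The endothelial receptor gene Kdr was higher with endoglin siRNA than with control siRNA, with log2 ratios of 1.33 (1 animal) and 0.41 (pool) in endoglin siRNA cells, against -0.03 and -0.03 in untreated cells (mean 0.87 ± 0.18, SE, limma adjusted p = 0.0274). Without the 1-animal endoglin siRNA array the ratio was 0.41 (adjusted p = 0.0457). It was the 1 call among 9 measured endothelial markers. In that comparison 8.47% of all genes were called. Of the other cell type lists, 5 of 14 measured stellate cell markers were higher and 2 lower. Kupffer cell markers had 1 of 11 higher and hepatocyte markers 1 of 8, with 0 lower in both lists. Limma called 0 of 10 portal fibroblast and mesothelial markers. Of these 10, 0 had an unadjusted p under 0.05, against 6911 of all 29833 probes. Stab2 and Emcn were not well above background in Cy5 on 3 of the 4 arrays, and Pecam1 on both 1-animal arrays.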
